A study of Rattus norvegicus with 8 samples.

Results

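The vasoactive hormone receptors described here are 9 genes, chosen by name, of 32623 genes counted in the outflow veins of rat arteriovenous fistulas (AVFs). They are Ednra and Ednrb for endothelin, Agtr1a for angiotensin II, Adra1d for noradrenaline, Ptgir for prostacyclin, Npr1, Npr2 and Npr3 for natriuretic peptides, and Bdkrb2 for bradykinin. In Sprague Dawley rats of both sexes, the end of the epigastric vein was joined to the side of the femoral artery, which makes the vein carry arterial flow, and a nanofiber scaffold was wrapped around the vein next to the join. In 4 rats (BAPN, 3 female and 1 male) the scaffold released β-aminopropionitrile, which blocks lysyl oxidases, the enzymes that link collagen and elastin fibres to each other. In the other 4 (Vehicle, 2 female and 2 male) it carried no drug. Every vein was collected at day 21, so all of them had surgery, arterial flow and a scaffold, and no vein without these was compared. The age of the rats is not given in the sources used here. The question was which transcripts differ when lysyl oxidase is inhibited from outside the vein.

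Hormones in the blood and transmitters from nerves set the tone of a vein through receptors in smooth muscle and endothelium. Receptors for endothelin, angiotensin II and noradrenaline couple to Gq proteins, which release calcium and shorten the smooth muscle cell. The prostacyclin receptor raises cyclic AMP, and the natriuretic peptide receptors Npr1 and Npr2 are themselves guanylyl cyclases that make cyclic GMP. Both cyclic nucleotides relax smooth muscle. Npr3 lacks the cyclase and removes natriuretic peptides from the fluid around the cell, and endothelial Bdkrb2 triggers release of nitric oxide and prostacyclin.

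Transcripts of 2 of the 9 receptors, Ednra and Npr1, were lower in BAPN than in Vehicle veins at a false discovery rate (FDR) under 0.05 in edgeR's quasi-likelihood test, and none was higher. Over all 11682 genes tested, 9.25% were lower (1081 genes) and 7.5% were higher (876 genes). Scaling by library totals only gave 1160 lower and 508 higher, with the same number of receptors called. A gene was tested when its base mean, the average normalised read count over the 8 libraries, was at least 100. This kept 8 receptors and left out Adra1d, whose base mean was 45.2. The log2 fold changes of all 8 were below zero, with a median of -0.52 against 0.02 over all genes tested. For 3 of the 8 (Ednra, Ptgir and Npr1) every BAPN vein was below every Vehicle vein, as for 11.9% of all genes tested. The tool DESeq2 called 4 receptors lower (Ednra, Npr1, Ptgir and Npr3) where it called 15.1% of all genes lower. In whole-vein RNA, fewer cells of a type and less RNA per cell cannot be told apart.

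Depth separated the groups. The total count was 45039451 to 52241007 in the BAPN libraries and 19548203 to 22442050 in the Vehicle libraries, so the shallowest BAPN library had 2.01 times the count of the deepest Vehicle library (exact two-sided permutation p = 0.0286, the smallest that 4 against 4 allows). Levels below are CPM, in which a gene's count is divided by the size of its library and brought to a common total, with library sizes scaled by the trimmed mean of M-values (TMM), and they are compared between rats, not between genes, because transcript lengths were not available. After thinning every library to the smallest total, 2 receptors were still called. Of the 11 smooth muscle markers, all were above the count minimum, and 7 were lower with BAPN, which is described with the other cell markers after the receptors. Of the 9 endothelial markers found in the files, 8 were above that minimum.

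Promoters, the 250 bases before the annotated start, were taken from a RefSeq table (rat build GRCr8) in which 7 of the 9 receptors were matched. The promoters of the 3 receptors whose groups did not overlap are shown, since these are the genes whose levels separated every BAPN vein from every Vehicle vein. Sequences run 5′ to 3′ on the gene's strand, and capitals mark a GC box, GGGCGG or its reverse complement CCGCCC, searched on both strands. Ednra lies at chr19:47137674-47137923 on the plus strand, Npr1 at chr2:178247089-178247338 on the minus strand and Ptgir at chr1:86707440-86707689 on the plus strand.
Ednra: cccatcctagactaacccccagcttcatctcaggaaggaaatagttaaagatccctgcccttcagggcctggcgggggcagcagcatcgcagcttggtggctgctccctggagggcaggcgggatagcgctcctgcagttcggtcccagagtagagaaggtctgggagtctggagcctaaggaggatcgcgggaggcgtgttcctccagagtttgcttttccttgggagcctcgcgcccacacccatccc
Npr1: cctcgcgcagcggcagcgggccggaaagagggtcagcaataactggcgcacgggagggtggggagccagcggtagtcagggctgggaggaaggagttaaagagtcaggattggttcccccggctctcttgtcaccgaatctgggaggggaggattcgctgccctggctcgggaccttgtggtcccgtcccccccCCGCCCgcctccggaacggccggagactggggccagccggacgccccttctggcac
Ptgir: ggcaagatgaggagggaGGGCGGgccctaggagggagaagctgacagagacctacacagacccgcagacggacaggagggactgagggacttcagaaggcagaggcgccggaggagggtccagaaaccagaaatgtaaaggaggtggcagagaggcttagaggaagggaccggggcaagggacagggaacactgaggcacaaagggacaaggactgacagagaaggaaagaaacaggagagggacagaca
A GC box stood in the promoters of Npr1, Ptgir and Agtr1a, 3 of the 7, and in 30.5% of all 33469 promoters of the same length. The Ednra window held none. The serum response factor motif known as the CArG box (in 1.5% of all promoters), the TEAD motif GGAATG (12.1%) and the cyclic AMP response element TGACGTCA (1.59%) were searched on both strands and were in none of the 7 windows. The GC content was 61.2% for Ednra, 68.8% for Npr1 and 58.8% for Ptgir, against a median of 51.2% over all promoters. Among the receptors whose groups overlapped, it was 64.0% for Adra1d, 60.8% for Agtr1a, 53.2% for Ednrb and 49.6% for Npr3.

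Ednra (ENSRNOG00000012721) encodes the endothelin A receptor, the main constrictor receptor for endothelin-1 on smooth muscle. Its level in BAPN veins 1 to 4 was 43.7, 37.4, 45.2 and 44.8 CPM, and in Vehicle veins 1 to 4 it was 100.4, 62.5, 75.5 and 84.8 CPM. The 4 BAPN veins lay close together, and the highest of them was below the lowest Vehicle vein. The means were 42.8 ± 3.63 and 80.8 ± 15.9 CPM (SD, n = 4 in each group), a level 47.0% lower with BAPN. On the log2 scale the difference was -0.92 (SE 0.15, 95% interval -1.23 to -0.57, edgeR FDR 0.00986), and the exact permutation p was 0.0286. It passed the threshold in each of the 8 fits that left out 1 library (-1.02 to -0.80). Among the 5 females alone, 3 BAPN against 2 Vehicle, the difference was -0.95 and the edgeR FDR 0.0871.

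**Figure D1:**
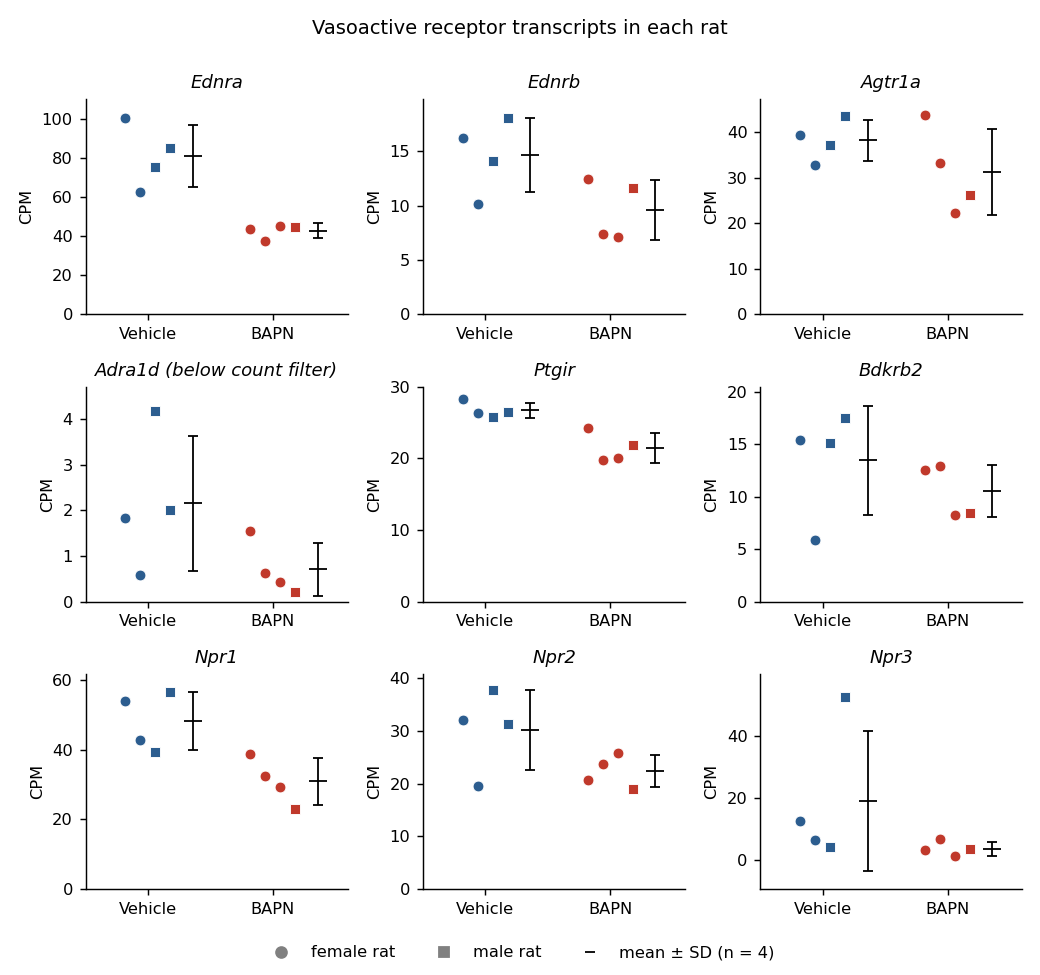
Level of each receptor in every rat, in CPM on a linear axis, with Vehicle in blue, BAPN in red, circles for females, squares for males, and the mean ± SD of 4 rats beside the points. Ednra, Npr1 and Ptgir show no overlap between groups, the Npr3 panel is stretched by 1 Vehicle vein at 52.5 CPM, and its axis goes below 0 only because the mean minus the SD does.

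Ednrb (ENSRNOG00000010997) encodes the endothelin B receptor, which releases nitric oxide from endothelium and constricts when it is on smooth muscle. Its level was 12.4, 7.42, 7.10 and 11.6 CPM in BAPN veins 1 to 4 and 16.2, 10.2, 14.1 and 18.1 CPM in Vehicle veins 1 to 4. The groups overlapped, with Vehicle 2 below BAPN 1 and BAPN 4. The difference of -0.60 (SE 0.25, 95% interval -1.19 to -0.05) did not pass the test (edgeR FDR 0.118), and it passed in none of the 18 alternatives.

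Agtr1a (ENSRNOG00000018346) encodes the type 1a angiotensin II receptor, the main constrictor receptor of that hormone in rodents. Levels were 43.6, 33.1, 22.1 and 26.1 CPM in the BAPN veins against 39.4, 32.7, 37.2 and 43.5 CPM in Vehicle. BAPN 1 was the highest of all 8 veins and BAPN 3 the lowest. The difference was -0.29 (SE 0.21, 95% interval -0.80 to 0.14, edgeR FDR 0.330). It was -0.49 without BAPN 1 (edgeR FDR 0.089) and -0.16 without BAPN 3 (edgeR FDR 0.612), and among females alone it was -0.13 (edgeR FDR 0.802). The close paralog Agtr1b had at most 1 count in any library. How the counting treated reads that match both is not given in the sources used here.

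Adra1d (ENSRNOG00000021256) encodes the α1D-adrenoceptor, a Gq-coupled receptor through which noradrenaline constricts. It was sparse, with 74, 32, 19 and 10 counts in BAPN veins 1 to 4 and 39, 12, 99 and 42 counts in Vehicle veins 1 to 4, and it was below the count minimum. In CPM this was 1.53, 0.631, 0.438 and 0.209 with BAPN and 1.83, 0.593, 4.17 and 2.01 with Vehicle. BAPN 1 and BAPN 2 lay above Vehicle 2, so the groups overlapped. Without a filter on low counts the difference was -1.57, with an unadjusted edgeR p of 0.0460 and an FDR of 0.193.

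Ptgir (ENSRNOG00000016756), the receptor through which prostacyclin relaxes smooth muscle, spread little within either group. Levels were 24.2, 19.7, 20.0 and 21.9 CPM in the BAPN veins against 28.3, 26.3, 25.8 and 26.5 CPM in Vehicle. Every BAPN vein was below every Vehicle vein, by as little as the gap from 24.2 to 25.8 CPM. The difference was -0.32 (SE 0.11, 95% interval -0.58 to -0.06), and the tests split on it. The DESeq2 FDR was 0.0279, while the edgeR FDR was 0.0761 and edgeR did not call it when any library was left out (-0.38 to -0.29). The unadjusted exact permutation p of 0.0286, the smallest possible, only restates that the groups did not overlap.

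Bdkrb2 (ENSRNOG00000047300), the constitutive bradykinin receptor, had 12.6, 12.9, 8.28 and 8.50 CPM in the BAPN veins against 15.4, 5.88, 15.1 and 17.5 CPM in Vehicle. Vehicle 2 was the lowest of the 8 veins and the other 3 Vehicle veins the highest. The difference was -0.35 (SE 0.32, 95% interval -1.004 to 0.45, edgeR FDR 0.452), and among females alone it was 0.08, on the other side of zero (edgeR FDR 0.922). It was -0.60 without Vehicle 2 (edgeR FDR 0.0759) and -0.20 without Vehicle 4 (edgeR FDR 0.716).

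Npr1 (ENSRNOG00000014684) encodes the guanylyl cyclase that answers atrial and B-type natriuretic peptides. Levels were 38.9, 32.4, 29.4 and 22.9 CPM in BAPN veins 1 to 4 and 53.9, 42.8, 39.5 and 56.7 CPM in Vehicle veins 1 to 4. The groups met closely without overlapping, BAPN 1 at 38.9 and Vehicle 3 at 39.5 CPM. The means were 30.9 ± 6.67 and 48.2 ± 8.37 CPM (SD, n = 4 in each group), 35.9% lower with BAPN, or -0.64 on the log2 scale (SE 0.18, 95% interval -1.06 to -0.23, edgeR FDR 0.0427, exact permutation p = 0.0286). The call rested on single libraries. With 1 library left out, the edgeR FDR was 0.0699 for BAPN 2, 0.105 for BAPN 3, 0.0844 for BAPN 4, 0.110 for Vehicle 1 and 0.0918 for Vehicle 4, while the difference stayed between -0.77 and -0.53 over all 8 such fits. It was also lost with sex as a covariate (-0.72, edgeR FDR 0.0562), among females alone (-0.53, edgeR FDR 0.150) and with no filter on low counts (-0.61, edgeR FDR 0.0595).

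Npr2 (ENSRNOG00000015991) encodes the cyclase that answers C-type natriuretic peptide, which endothelium releases. Levels were 20.8, 23.8, 25.8 and 19.04 CPM in the BAPN veins against 32.1, 19.6, 37.7 and 31.3 CPM in Vehicle. All Vehicle veins but Vehicle 2 were above all BAPN veins. The difference of -0.43 (SE 0.20, 95% interval -0.86 to 0.02, edgeR FDR 0.147) passed the threshold only without Vehicle 2, where it was -0.59 (edgeR FDR 0.0279). Among females alone it was -0.14 (edgeR FDR 0.740).

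Npr3 (ENSRNOG00000019184), the clearance receptor, varied widely among the Vehicle rats. Levels were 3.34, 6.84, 1.31 and 3.55 CPM in the BAPN veins against 12.8, 6.67, 4.21 and 52.5 CPM in Vehicle. BAPN 2 was above both Vehicle 2 and Vehicle 3, and Vehicle 4 stood far above every other vein. The difference was -2.34 (SE 0.81, 95% interval -3.61 to 0.03, edgeR FDR 0.0699, DESeq2 FDR 0.0321). Without Vehicle 4 it was -1.06 (edgeR FDR 0.217), and among females alone -1.34 (edgeR FDR 0.242).

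**Figure D2:**
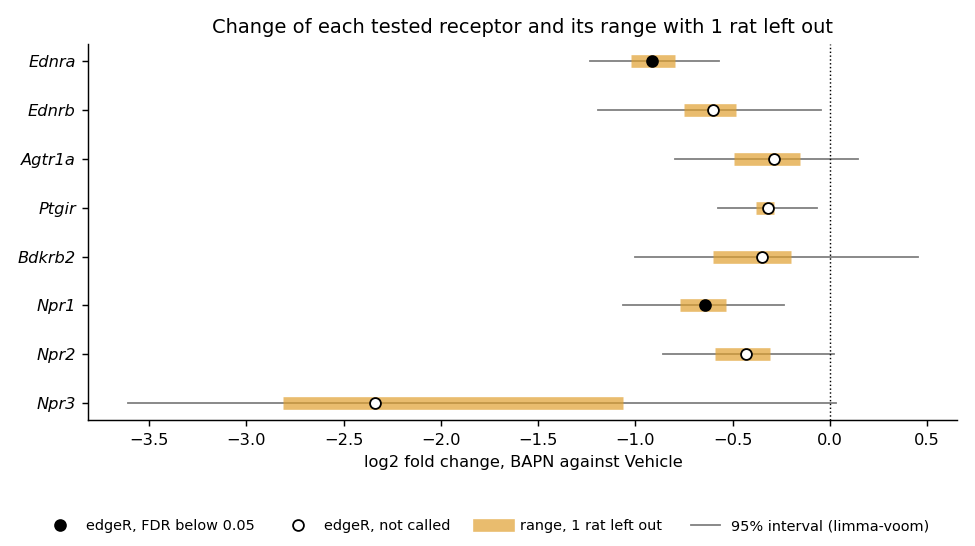
Log2 fold change (BAPN against Vehicle) of the 8 tested receptors from the edgeR fit, with the 95% interval from limma-voom, which need not be centred on it, and the range over the 8 fits that leave out 1 rat. All 8 estimates are left of zero, Ednra (-0.92) and Npr1 (-0.64) are the receptors called, and Npr3 (-2.34) has the widest interval.

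The balance between receptors of one hormone was compared within each library as a ratio of counts, which does not depend on library scaling. The log2 ratio of Ednra to Ednrb differed by -0.28 between BAPN and Vehicle (exact permutation p = 0.257), so the groups overlapped in it although only one of the genes had passed the test. The log2 ratio of Npr1 to Npr3 was 1.21 higher with BAPN (exact permutation p = 0.2) and that of Npr2 to Npr3 1.46 higher (exact permutation p = 0.229). Both depended on Vehicle 4, without which they were 0.58 and 0.77, and on BAPN 3, without which they were 0.80 and 0.96. The log2 ratio of Npr1 to Npr2 differed by -0.25 (exact permutation p = 0.4). Leaving out BAPN 1 or BAPN 3 moved the difference for Ednra to Ednrb to -0.16 or -0.44. For Npr1 to Npr2 it became -0.40 with BAPN 1 left out, -0.16 with BAPN 3, -0.11 with Vehicle 2 and -0.46 with Vehicle 3. None of the 4 ratios passed the threshold after Benjamini-Hochberg adjustment (0.343, 0.343, 0.343 and 0.4), and the groups overlapped in all 4.

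**Figure D3:**
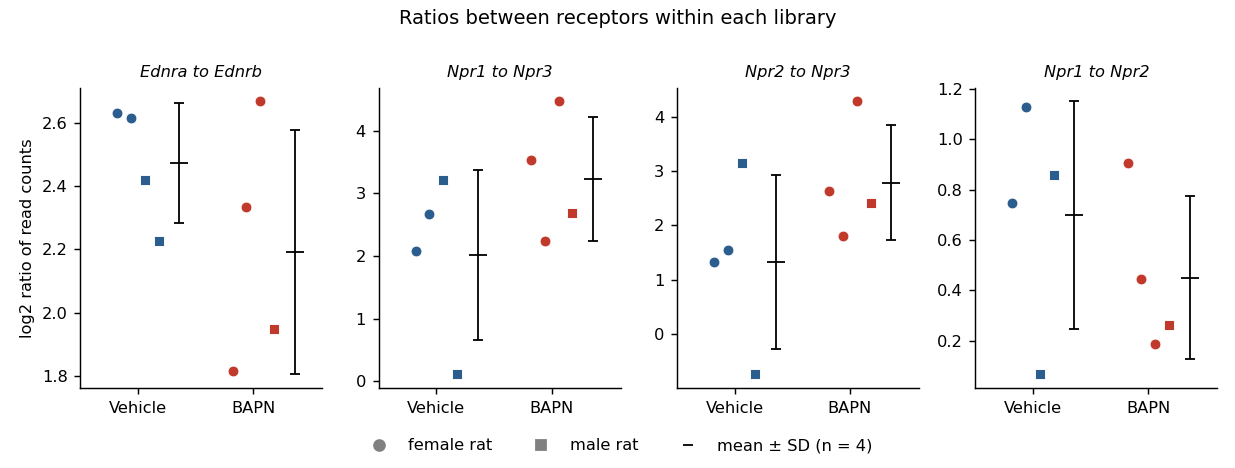
Log2 ratio of read counts between receptors within each library, with Vehicle in blue, BAPN in red, circles for females, squares for males, and the mean ± SD of 4 rats. The groups overlap in all 4 ratios, and the lowest Npr1 to Npr3 ratio belongs to Vehicle 4.

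The ligands of these receptors, and the enzymes that make or break them, gave 28 genes found in the files, of which 15 were tested. One of them, Ace, was lower with BAPN and none was higher, 6.67% against the 9.25% of all genes, and the median log2 fold change was -0.19. Ace, which makes angiotensin II and degrades bradykinin, was at 59.6, 37.5, 27.4 and 27.2 CPM in the BAPN veins against 86.3, 54.1, 64.6 and 123.6 CPM in Vehicle, with BAPN 1 above Vehicle 2 (-1.11, edgeR FDR 0.0423). Its call was kept only without BAPN 1 or without Vehicle 2, and the edgeR FDR reached 0.111 in the other fits that left out a library. With sex as a covariate it was 0.0883. Agt, the precursor of angiotensin II, did not pass (-1.32, edgeR FDR 0.0699). Edn1, the endothelin-1 gene, differed by 0.47 (edgeR FDR 0.306) and Ece1, which activates it, by -0.61 (edgeR FDR 0.0829). The prostaglandin synthases Ptgs1 and Ptgs2 differed by -0.34 and -0.54 (edgeR FDR 0.359 and 0.262).

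The natriuretic peptide genes themselves were nearly absent from the vein. Nppa had 0 counts in every library, Nppb between 0 and 17 and Nppc between 0 and 22. Edn2 also had 0 counts throughout, and 0 counts allow up to 3 per library, by counting error only. Hormones that reach the vein in the blood are not measured by its RNA.

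**Figure D4:**
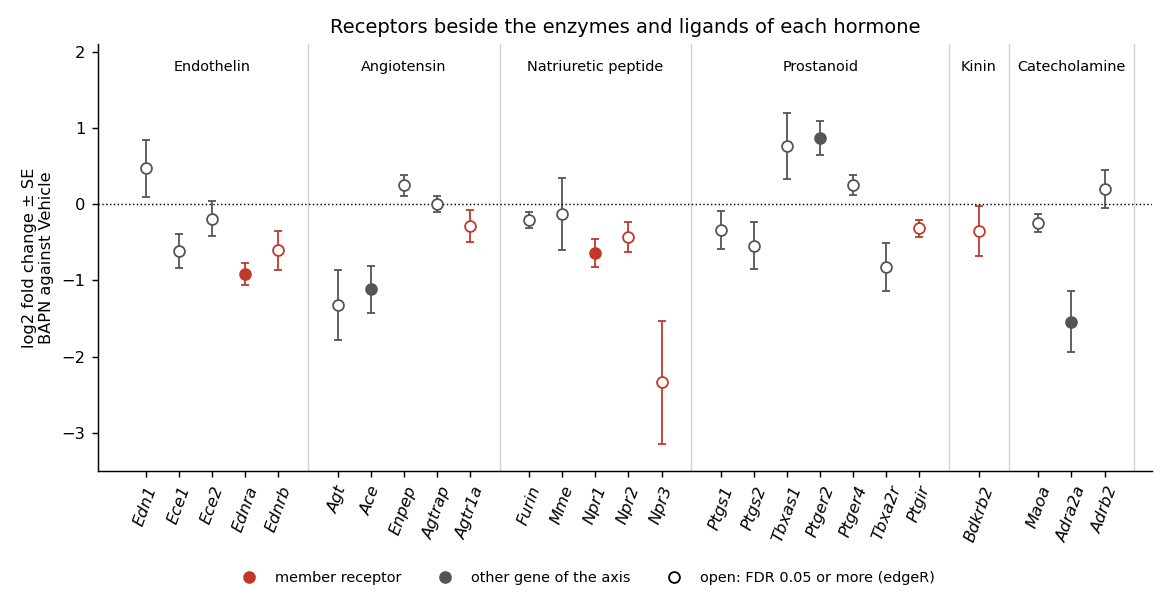
Log2 fold change ± SE (BAPN against Vehicle) of tested receptors beside tested ligands and enzymes of the same hormone, grouped by hormone, with the 9 receptors' tested genes in red, other genes in grey, and filled points for an edgeR FDR under 0.05. In the endothelin group Ednra is at -0.92 while Edn1 is at 0.47, and in the angiotensin group Ace is at -1.11 and Agtr1a at -0.29.

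Of 47 further vasoactive receptor genes found in the files, 31 were tested. With BAPN 7 were lower (22.6%, against 9.25% of all genes) and 1 was higher (3.23%, against 7.5%), and the median log2 fold change was -0.44. Of those called, the largest differences were those of P2rx1, an ATP-gated channel of sympathetic constriction (-2.22, edgeR FDR 0.0424), and Adra2a, the α2A-adrenoceptor (-1.54, edgeR FDR 0.0323). P2rx1 stood at 50.3 CPM in Vehicle 2 and 103.9 CPM in Vehicle 3, while the remaining 6 veins held 7.35 to 14.8 CPM. The apelin receptor Aplnr (-1.44, edgeR FDR 0.0340) and the neuropeptide Y receptor Npy1r (-0.93, edgeR FDR 0.0244) were lower too.

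Ramp2 (-0.92, edgeR FDR 0.0274) and its partner Calcrl (-0.77, edgeR FDR 0.0202), which together form the adrenomedullin receptor, were both lower, as was the sphingosine 1-phosphate receptor S1pr1 (-0.74, edgeR FDR 0.0194). The receptor that was higher was Ptger2 (0.86, edgeR FDR 0.0436), through which prostaglandin E2 raises cyclic AMP, and its BAPN veins (20.5 to 24.0 CPM) were all above its Vehicle veins (6.83 to 17.7 CPM). Among those not called, the thrombin receptor F2r differed by -0.46 (edgeR FDR 0.312) and S1pr2 by -0.30 (edgeR FDR 0.0649).

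These calls depended on single libraries. With 1 library left out the count of 8 became 5 for BAPN 1, 4 for BAPN 2, 2 for BAPN 3 and 3 for BAPN 4, and it became 1 for Vehicle 1, 10 for Vehicle 2, 2 for Vehicle 3 and 3 for Vehicle 4. S1pr1 was lost only without Vehicle 1 (edgeR FDR 0.0583), and Calcrl only without BAPN 3 (edgeR FDR 0.0564) or Vehicle 1 (edgeR FDR 0.0524). Ramp2 was lost without BAPN 2, Vehicle 1, Vehicle 3 or Vehicle 4 (edgeR FDR up to 0.0735). Npy1r kept its call without BAPN 2, Vehicle 1 or Vehicle 2, Adra2a without BAPN 1, BAPN 2 or Vehicle 2, and Aplnr without BAPN 1 or Vehicle 2. P2rx1 kept its call only without Vehicle 4 and was -1.39 without Vehicle 3, and Ptger2 kept its call only without Vehicle 2. Ptger2 was also lost with scaling by library totals only (0.79, edgeR FDR 0.0692), after thinning to the smallest library (0.88, edgeR FDR 0.0527) and with sex as a covariate (0.83, edgeR FDR 0.0683). P2rx1, Adra2a, Aplnr, Npy1r and Ramp2 also missed the threshold with sex as a covariate (edgeR FDR 0.0503 to 0.0990).

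Downstream of the constrictor receptors, 30 genes of the G protein and calcium arm were tested. With BAPN 4 were lower (13.3%, against 9.25% of all genes) and none was higher, with a median of -0.18. These were Ppp1r14a, whose product blocks myosin phosphatase (-1.37, edgeR FDR 0.0199), Rgs5, which shortens G protein signals (-1.32, edgeR FDR 0.0296), the RhoA activator Arhgef12 (-0.92, edgeR FDR 0.0223) and the Gq family subunit Gna11 (-0.50, edgeR FDR 0.0355). The abundant Rhoa and Gnai2 differed by 0.33 and 0.08 (edgeR FDR 0.121 and 0.721). The count of 4 became 0 without BAPN 3 or Vehicle 1 and 2 without BAPN 4. Ppp1r14a was lost without BAPN 3 or Vehicle 1, Arhgef12 without these or BAPN 4, while Rgs5 kept its call only without BAPN 1 or Vehicle 2 and Gna11 only without BAPN 4 or Vehicle 3. With sex as a covariate Rgs5 (edgeR FDR 0.0704) and Gna11 (edgeR FDR 0.0679) were lost, and Gna11 was lost with no filter on low counts (edgeR FDR 0.0724).

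The cyclic nucleotide arm lists genes that make, pass on or degrade cyclic AMP and cyclic GMP, the messengers of Ptgir, Npr1 and Npr2. Some, such as Gucy1a1 and Gucy1a2, belong to the nitric oxide path and do not carry the signals of these receptors. Of the 21 genes of this arm tested, 11 were lower with BAPN (52.4%, against 9.25% of all genes) and none was higher. All 21 log2 fold changes were below zero, with a median of -0.96, and in 12 every BAPN vein was below every Vehicle vein, as in 11.9% of all genes tested. The members called include both makers and breakers of the messengers. Gucy1a2 (-2.29, edgeR FDR 0.0409) and Gucy1a1 (-1.44, edgeR FDR 0.0147) are subunits of the guanylyl cyclase that nitric oxide activates, and Adcy5 (-1.38, edgeR FDR 0.0164) and Adcy3 (-1.20, edgeR FDR 0.0161) make cyclic AMP. Pde3a (-2.07, edgeR FDR 0.0227) and Pde5a (-1.41, edgeR FDR 0.0187) are phosphodiesterases that degrade the messengers.

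Gucy1a1 was at 23.7, 44.8, 29.98 and 31.8 CPM in the BAPN veins against 87.2, 49.5, 107.3 and 109.1 CPM in Vehicle, every BAPN vein below every Vehicle vein. The protein kinase A subunit Prkar1a (-0.26, edgeR FDR 0.226) and the adenylyl cyclase Adcy4 (-0.05, edgeR FDR 0.859) did not pass. With 1 library left out the count of 11 became 7 for BAPN 3, 6 for BAPN 4, 4 for Vehicle 1 and 7 for Vehicle 4. Gucy1a1 and Adcy3 were called in all 8 of these fits, Adcy5 and Pde5a in all but that without Vehicle 1, and Pde3a in all but those without BAPN 4 or Vehicle 1, while Gucy1a2 was called only without BAPN 1 or Vehicle 2 and was lost with sex as a covariate (edgeR FDR 0.0780).

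Cell type markers moved between the same groups. Of 11 smooth muscle markers tested, 7 were lower (63.6%, where 9.25% of all genes were) and none was higher, with a median of -1.20. Their summed level ranged from 2174 to 5379 CPM with BAPN and from 4392 to 7682 CPM with Vehicle, and their mean log2 CPM did not overlap (6.24 to 7.60 against 7.71 to 8.30). Myh11, the smooth muscle myosin heavy chain, was at -1.60 (edgeR FDR 0.0148), while the abundant Acta2 (-0.75, edgeR FDR 0.260) and Tagln (-0.64, edgeR FDR 0.217) did not pass. Of 8 endothelial markers tested 3 were lower (37.5%, again beside 9.25%), their summed level was 504 to 685 CPM against 857 to 1603 CPM, and their mean log2 CPM did not overlap either (5.38 to 6.14 against 6.23 to 6.96). Von Willebrand factor, Vwf, was at -1.99 (edgeR FDR 0.0389) and the endothelial receptor Tie1 at -0.32 (edgeR FDR 0.198).

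Of 8 pericyte markers 3 were lower (37.5%, beside 9.25% of all genes), with a summed level of 561 to 931 CPM against 965 to 2007 CPM, Notch3 at -1.90 (edgeR FDR 0.00890) and Pdgfrb at -0.74 (edgeR FDR 0.0711). None of 8 fibroblast markers passed (Col1a1 -1.002, edgeR FDR 0.118, and Col3a1 -0.84, edgeR FDR 0.119), and their sum was 23537 to 36828 CPM against 28657 to 95111 CPM. Of 9 leukocyte markers 2 were higher (22.2%, beside 7.5% of all genes), with a summed level of 2868 to 4001 CPM against 1504 to 3491 CPM, and the abundant Cd68 (0.54, edgeR FDR 0.261) and Csf1r (0.17, edgeR FDR 0.526) did not pass. One of 4 adipocyte markers tested was lower (25%, beside 9.25%), and the median was -1.52, although the sum of that list was 1060 to 2925 CPM with BAPN and 436 to 1694 CPM with Vehicle. None of 5 Schwann cell and nerve markers passed (sum 46.3 to 278 CPM with BAPN, 55.9 to 108 CPM with Vehicle). The 2 skeletal muscle markers tested did not pass either (sum of that list 16.1 to 29.98 CPM with BAPN, 17.1 to 69.7 CPM with Vehicle), nor did the 1 keratinocyte or gland marker (sum of that list 3.11 to 31.5 CPM with BAPN, 2.95 to 4.89 CPM with Vehicle). No marker of these lists was at 0 in all libraries. The part of these cell types in the receptor results was not tested.

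**Figure D5:**
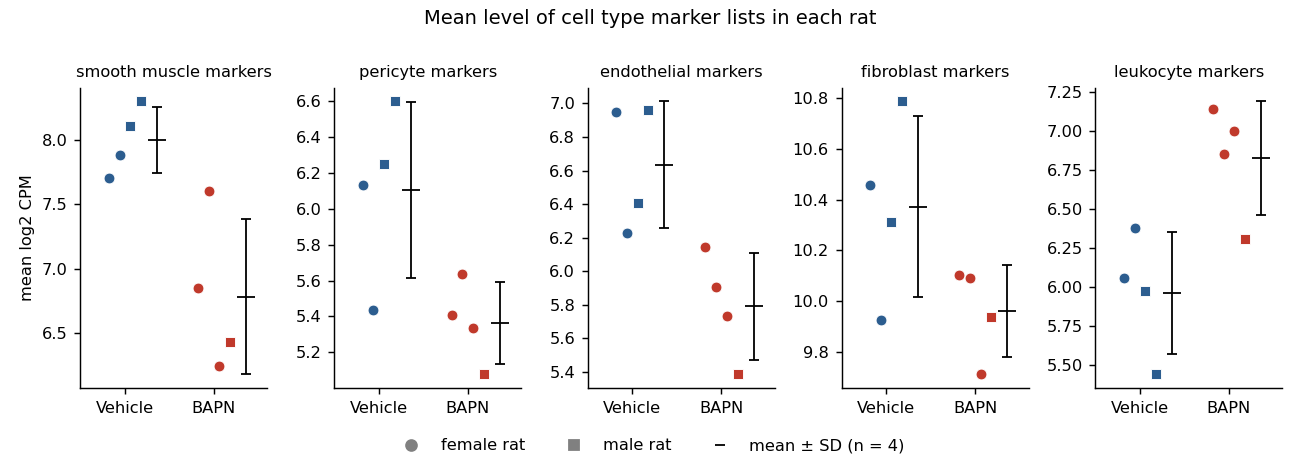
Mean log2 CPM of each cell type's tested marker genes in every rat, with Vehicle in blue, BAPN in red, circles for females, squares for males, and the mean ± SD of 4 rats. The smooth muscle and endothelial lists do not overlap between groups, and the other lists do.

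Set against the smooth muscle markers, no receptor separated the groups. The log2 level of each receptor minus the mean log2 level of the smooth muscle markers overlapped between BAPN and Vehicle for all 8 tested receptors. For Ednrb, Agtr1a, Ptgir, Npr1, Npr2 and Bdkrb2 the overlap came from BAPN 2 alone, the BAPN vein with the highest smooth muscle marker mean. The other BAPN veins were above every Vehicle vein for these receptors. The difference between the group means of receptor minus marker level was above zero for 7 receptors, from 0.32 for Ednra to 0.96 for Bdkrb2, with 0.57 for Npr1. For Npr3 it was -0.62, and none of these differences was tested. Ednra minus the markers was -1.39, -2.37, -0.74 and -0.94 in BAPN veins 1 to 4 and -1.06, -1.92, -1.87 and -1.89 in Vehicle veins 1 to 4.

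The genes whose pattern over the 8 libraries lay closest to that of Ednra were Dapk2, Cygb and Kcnj8, with root mean square differences of 0.110, 0.123 and 0.128 on the log2 scale after centring each gene. Kcnj8, the pore of a potassium channel that ATP closes, is also one of the pericyte markers. For Npr1 the closest were Zfp503, Tspan7 and Fitm2, at 0.0876, 0.0979 and 0.101.

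Sex was unevenly split, with 1 male among the BAPN rats, so any difference between the sexes in the response rested on that rat. The BAPN male had the lowest Npr1 level of the 8 veins (22.9 CPM) and the lowest Npr2 level (19.04 CPM), while its Ednra level (44.8 CPM) lay within those of the BAPN females (37.4 to 45.2 CPM). A treatment by sex term passed an FDR of 0.05 for 0 of the 11682 genes in edgeR, with 1442 at an unadjusted p under 0.05 and none of the 8 receptors among these.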

How the data were processed

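RNA from 8 rats, 4 per group, was measured in whole veins. Groups, replicate numbers and sexes come from the labels. The deposited files hold, for each rat, the authors' whole-number counts of reads per gene, not normalised. The submitters' processing notes name bcl2fastq 2.17, Trim Galore and STAR. The counter, strand setting and genome build are not given in the sources used here. Every value column was used (0 were left out).

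A base mean of 100 or more (DESeq2 1.42.0 size factors) was required, as in the study. The groups were compared in R 4.3.3 with edgeR 4.0.16 (TMM scaling, quasi-likelihood F test with no covariate), with FDR values by Benjamini-Hochberg over all 11682 genes. SE and 95% intervals are from limma 3.58.1 (voom). Permutation tests were two-sided and exact over 70 arrangements, on log2 CPM with a prior count of 2, or on ratios with 0.5 added to both counts. The steps were tested on simulated BAPN and Vehicle counts, in which 170 of 200 genes changed by 1.5 on the log2 scale were recovered among 11682, with 5 false calls. Changes as small as those of the receptors called were not simulated, so recovery at that size is not known. Within each group, all pairs of libraries differed by more than counting noise, with a chi-square per degree of freedom of 68.6 to 321 and no p-value computed.

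Members and lists were chosen with earlier results of these data known. Named genes are all 9 receptors; of each pathway list the genes called, up to the 6 with the largest change, and the 2 most abundant not called; of each marker list the 2 most abundant; and the 3 genes closest to Ednra and to Npr1. Agt, Edn1, Ptgs1, Ptgs2, the natriuretic peptide genes, Edn2, Calcrl, S1pr1, Agtr1b and Myh11 were named besides these, after their values were seen. Of the genes this rule names, 1 is not reported here. List genes without a single matching row (Gnas, Klk1, Prkg1 and others) were left out. Alternatives were other scalings, filters, DESeq2, thinning to the smallest library, a sex term, only the females, the replicate number as a block, and leaving out each library.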

Additional observations from a re-analysis of the deposited data

How the results depend on the processing

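The numbers of genes called were recomputed under each alternative. Over all genes, 1957 were called in edgeR, 3202 by DESeq2, 930 with sex as a covariate, 89 in females alone, 556 with the replicate block and 397 to 2215 with 1 library left out. Of the receptors 2 were called, against 4 by DESeq2, 1 with no filter on low counts, 1 with sex as a covariate, 0 in females alone and 1 with the block, and 1 to 3 with 1 library left out. The 8 further receptors became 2 with sex as a covariate, 0 in females alone and with the block, and 1 to 10 with 1 library left out. The single ligand or enzyme became 3 by DESeq2, 2 after thinning, 0 in females alone and with the block, and 0 to 1 with 1 library left out. The 4 genes of the G protein and calcium arm became 10 by DESeq2, 2 with sex as a covariate, 0 in females alone, 2 with the block and 0 to 5 with 1 library left out, and the 11 of the cyclic nucleotide arm 0 in females alone, 4 with the block and 4 to 12. The cause was not tested, although females alone leave 5 libraries and the block takes residual degrees of freedom. The log2 fold change of Bdkrb2 reversed, to 0.079, in females alone. The labels do not say whether same-numbered rats share more than a number. Their deviations correlated by 0.09, -0.27, 0.27 and -0.14, too few values to exclude shared handling. The block was therefore not read as a paired design. With it the edgeR FDR of Npr1 was 0.0862.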

Other observations

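Several receptors below the count minimum had values that belong in no comparison above, and were named after their values were seen. Bdkrb1, the bradykinin receptor that injury and inflammation induce, was at 1.91, 2.86, 1.87 and 0.918 CPM in BAPN veins 1 to 4 and at 0.702, 0.593, 0.673 and 0.621 CPM in Vehicle veins 1 to 4. Every BAPN vein was above every Vehicle vein, while the constitutive receptor Bdkrb2 overlapped. The share of genes below the count minimum that separate in this way was not computed. Without a filter on low counts, the log2 difference of Bdkrb1 was 1.57 and missed the threshold (edgeR FDR 0.0683). Mas1, a receptor for angiotensin 1-7, Adra1b, the α1B-adrenoceptor, and Adrb3, the β3-adrenoceptor, had every BAPN vein below every Vehicle vein in CPM. Their log2 differences of -2.28 (edgeR FDR 0.0547), -1.71 (edgeR FDR 0.101) and -1.58 (edgeR FDR 0.0569) did not pass. Adra2c, the α2C-adrenoceptor, passed the threshold without that filter (edgeR FDR 0.0163), with 5, 1, 0 and 1 counts in BAPN veins 1 to 4 and 124, 114, 18 and 4 counts in Vehicle veins 1 to 4. In CPM its BAPN veins (0 to 0.104) were all below its Vehicle veins (0.191 to 5.81), and no fold is given because the BAPN counts were so few. Adra1a (-3.05, edgeR FDR 0.193) and the type 2 angiotensin receptor Agtr2 (-0.53, edgeR FDR 0.779) did not pass either.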
